A study of Homo sapiens with 36 samples.

Results

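The transcript response of MDA-MB-231 cells to SHP1705 plus MG132 for 8 h was read against cells given DMSO alone, across all genes of the MG132 count table. The libraries were chosen by their labels: 3 libraries of the combination and 3 of DMSO, which makes 6 of the 36 libraries of the series. MDA-MB-231 is an established human triple-negative breast cancer cell line. Combination cells received 10 µM SHP1705, a compound that stabilizes cryptochrome proteins, together with 100 nM MG132, a peptide aldehyde that reversibly blocks the proteasome. DMSO, the solvent of the drugs, was given alone to the control cells, and 3 libraries each of MG132 alone and SHP1705 alone at the same doses and time complete the set of 12. All cells belong to this 1 line, and no knockout or transgene is named in the labels. The series asks what a cryptochrome stabilizer and a proteasome inhibitor do to transcription, alone and together.

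The proteasome degrades proteins that carry ubiquitin chains, and cells in which it is blocked accumulate damaged and short-lived proteins. Mammalian cells are known to answer through several programmes: heat shock factor HSF1 drives chaperone genes, the membrane-bound factor NRF1 (gene NFE2L1) drives the genes of proteasome subunits, NRF2 (gene NFE2L2) drives antioxidant enzymes, and ATF4 and XBP1 serve the integrated stress response and the unfolded protein response of the endoplasmic reticulum. Rapidly dividing cells also depend on the proteasome to destroy cyclins and other regulators of mitosis.

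The data are read counts per gene from polyA RNA-seq. Combination libraries held 34191153, 36637132 and 39251609 counts, and DMSO libraries held 37441210, 34597398 and 34539920. Levels are CPM, the usual count per library size after TMM scaling, and changes are log2 ratios of the combination over DMSO with their standard error. The submitters mention 3 independent experiments, but no label ties a library or its replicate number to one of them, and the p-values therefore reflect library-to-library spread that may be partly technical. Among 10449 genes with at least 5 CPM, the median coefficient of variation was 4.4% in combination libraries and 3.56% in DMSO libraries. All 12 of 12 markers of mesenchymal breast cancer cells were detected, with a summed level of 8223 to 8363 CPM in the combination and 8366 to 8376 CPM in DMSO. In the test given below, 5 of these 12 were called higher and 6 lower, beside 29.2% and 29.7% of all genes. Of 12 luminal breast markers 8 passed the filter on low counts, while the hormone receptor genes ESR1 and PGR did not. The luminal markers summed to 2053 to 2131 CPM in the combination and 2310 to 2358 CPM in DMSO. KRT18 belongs to both lists. POSTN, the gene of the matrix protein periostin and a fibroblast marker, had 98.3, 222 and 242 CPM in the combination libraries, against 0.255, 0.11 and 0.111 CPM in the DMSO libraries. POSTN was also raised in MG132 libraries 1 and 3 (33.6, 0.161 and 173 CPM over the 3) and in SHP1705 libraries 2 and 3 (0.267, 28.2 and 29.4 CPM). Genes that move with POSTN across libraries are therefore set apart below, and a fit with POSTN as a covariate is given beside the counts.

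Of 16591 genes tested, 9763 (58.8%) were called different between the combination and DMSO, 4838 higher (29.2%) and 4925 lower (29.7%), at an adjusted p below 0.05 (edgeR's quasi-likelihood test, Benjamini-Hochberg). The shares of 29.2% higher and 29.7% lower are the background for all list counts below. Most of the called changes were smaller than 2-fold. In all, 976 genes were called at least 2-fold higher (5.88% of those tested) and 834 at least 2-fold lower (5.03%). With POSTN as a covariate these counts were 572 higher and 726 lower, and with library totals in place of TMM factors 548 higher and 1806 lower. At 4-fold and above there were 274 higher and 111 lower, and at 8-fold and above 136 higher and 16 lower. The 3 combination libraries lay wholly above or wholly below the 3 DMSO libraries in 10537 genes (63.5%). A level is a share of its library, and in bulk RNA fewer cells of a kind and less RNA per cell cannot be told apart.

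The heat shock transcripts took so large a part of the combination libraries that the scaling matters for small changes. HSPA1A and HSPA1B alone held 7.8%, 8.01% and 7.97% of the counts of the combination libraries, against 0.157%, 0.176% and 0.178% of the DMSO libraries. With edgeR's TMM factors (0.845 to 0.856 in the combination) the median log2 change over all genes was -0.0083. With library totals and no factors the median was -0.31, and 2287 genes were then called higher and 8740 lower. Of the genes called in the first analysis, 7212 kept their call and direction with library totals and 676 were called in the other direction, none of them among the 1810 genes past 2-fold. With the POSTN covariate 6782 of the 9763 calls remained in the same direction, among them 164 of 164 genes that were at least 2-fold higher and had a mean above 50 CPM, but 64 of 406 such genes with a mean below 1 CPM. The 164 include POSTN itself, for which this fit is no check because its own level is the covariate. POSTN was far higher in every combination library than in every DMSO library, so the covariate overlaps with the comparison and lowers its precision. A call lost with the covariate therefore does not show that a gene follows POSTN, least of all at low counts.

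**Figure D1:**
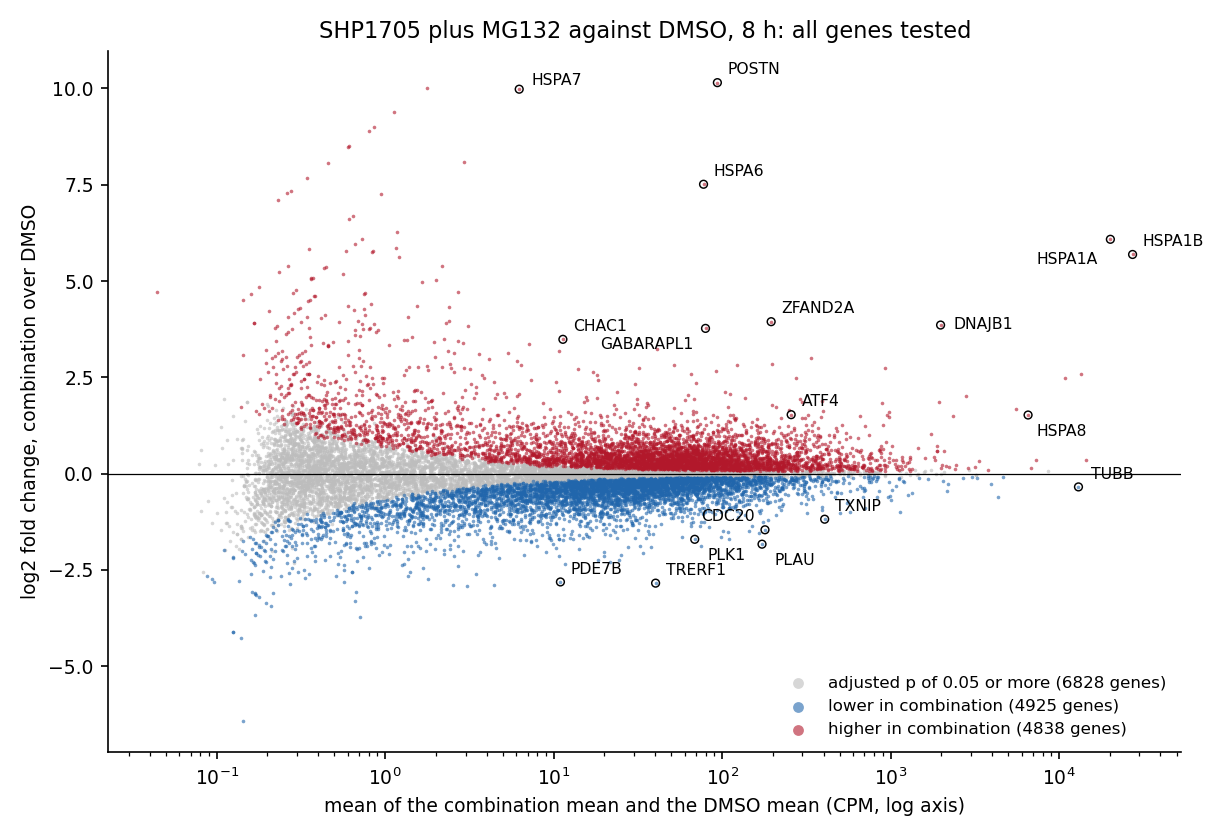
Change and level of every tested gene. Each point is a gene, with the mean of both group means in CPM on a log axis and its log2 change of the combination over DMSO on the vertical axis. Called genes are coloured red (higher) or blue (lower), and HSPA1A and HSPA1B are both abundant and far above the bulk, while the labelled TRERF1 and PDE7B reach -2.84 and -2.81.

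Over called genes averaging 5 CPM or more whose groups stood apart, the 15 highest changes were led by POSTN, HSPA7, HSPA6, HSPA1A and HSPA1B, followed by ZFAND2A, DNAJB1, GABARAPL1, CHAC1, CDH2, CTH, SCG2, NRCAM, BAG3 and YPEL2. Of these 15, CDH2, SCG2 and NRCAM were, like POSTN, lowest in combination library 1 by a wide margin. YPEL2, a little-studied zinc-binding protein gene, had 11, 9.66 and 11.6 CPM in the combination libraries, against 1.25, 1.6 and 1.41 CPM in the DMSO libraries. The 15 lowest were TRERF1, PDE7B, LFNG, CAVIN2, TNS4, ZBTB12, RCSD1, NOG, E2F2, PSRC1, DMBT1, RIN1, NEURL1B, CCRL2 and AGFG2. TRERF1, which encodes a zinc finger transcription regulator, had 10.6, 9.01 and 9.92 CPM in the combination libraries, against 70.9, 69.8 and 71.5 CPM in the DMSO libraries (-2.84 ± 0.059, adjusted p = 2.81e-18). PDE7B, a cyclic AMP phosphodiesterase, had 2.77, 3.17 and 2.29 CPM in the combination libraries, against 19.9, 19.5 and 18.3 CPM in the DMSO libraries. NOG encodes the BMP antagonist noggin and stood at 7.11, 7.37 and 7.7 CPM in the combination libraries, against 32.1, 31.7 and 33.7 CPM in the DMSO libraries. Groups without overlap were a condition of this ranking, and in these 3 falling genes more than 4-fold lay between the groups.

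The inducible HSP70 genes rose by large factors and to high levels. HSPA1A, which encodes the main stress-inducible HSP70, had 38927, 40611 and 39707 CPM in the combination libraries, against 533, 615 and 611 CPM in the DMSO libraries. HSPA1B, its near-identical neighbour, had 52240.3, 54155 and 54396 CPM in the combination libraries, against 965, 1067 and 1085 CPM in the DMSO libraries. The groups lay far apart in both genes, with log2 changes of 6.08 ± 0.13 (67.8-fold, adjusted p = 3.27e-18) and 5.69 ± 0.11, although the split of reads between such close copies is uncertain. HSPA6, an HSP70 made almost only under stress, had 154, 160.2 and 148 CPM in the combination libraries, against 0.891, 0.745 and 0.885 CPM in the DMSO libraries, a change of 7.51 ± 0.14 (adjusted p = 7.55e-19). HSPA7, a close pseudogene copy of HSPA6, held 374, 407 and 383 counts in the combination libraries, against 0, 0 and 1 counts in the DMSO libraries, and may share reads with it. HSPA8, the constitutive HSC70, started from a high level and had 9590.3, 9791 and 9755 CPM in the combination libraries, against 3458, 3326 and 3365 CPM in the DMSO libraries (1.52 ± 0.023). HSPH1, the HSP110 nucleotide exchange factor that works with HSP70, rose by 2.73 ± 0.03 and its relatives HSPA4L and HSPA4 by 1.96 and 1.19. Of 11 tested HSP70 and HSP110 genes, 8 rose and 0 fell, with a median log2 change of 1.52. The uncalled members were HSPA2, the testis-type HSP70 (0.15, adjusted p = 0.713), HSPA1L (0.14, adjusted p = 0.377) and the ribosome-associated HSPA14 (0.033, adjusted p = 0.594). HSPA1L lies beside the induced genes on chromosome 6, and had 8.1, 6.75 and 9.38 CPM in the combination libraries, against 7.33, 7.62 and 7.13 CPM in the DMSO libraries, so that the groups overlapped.

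**Figure D2:**
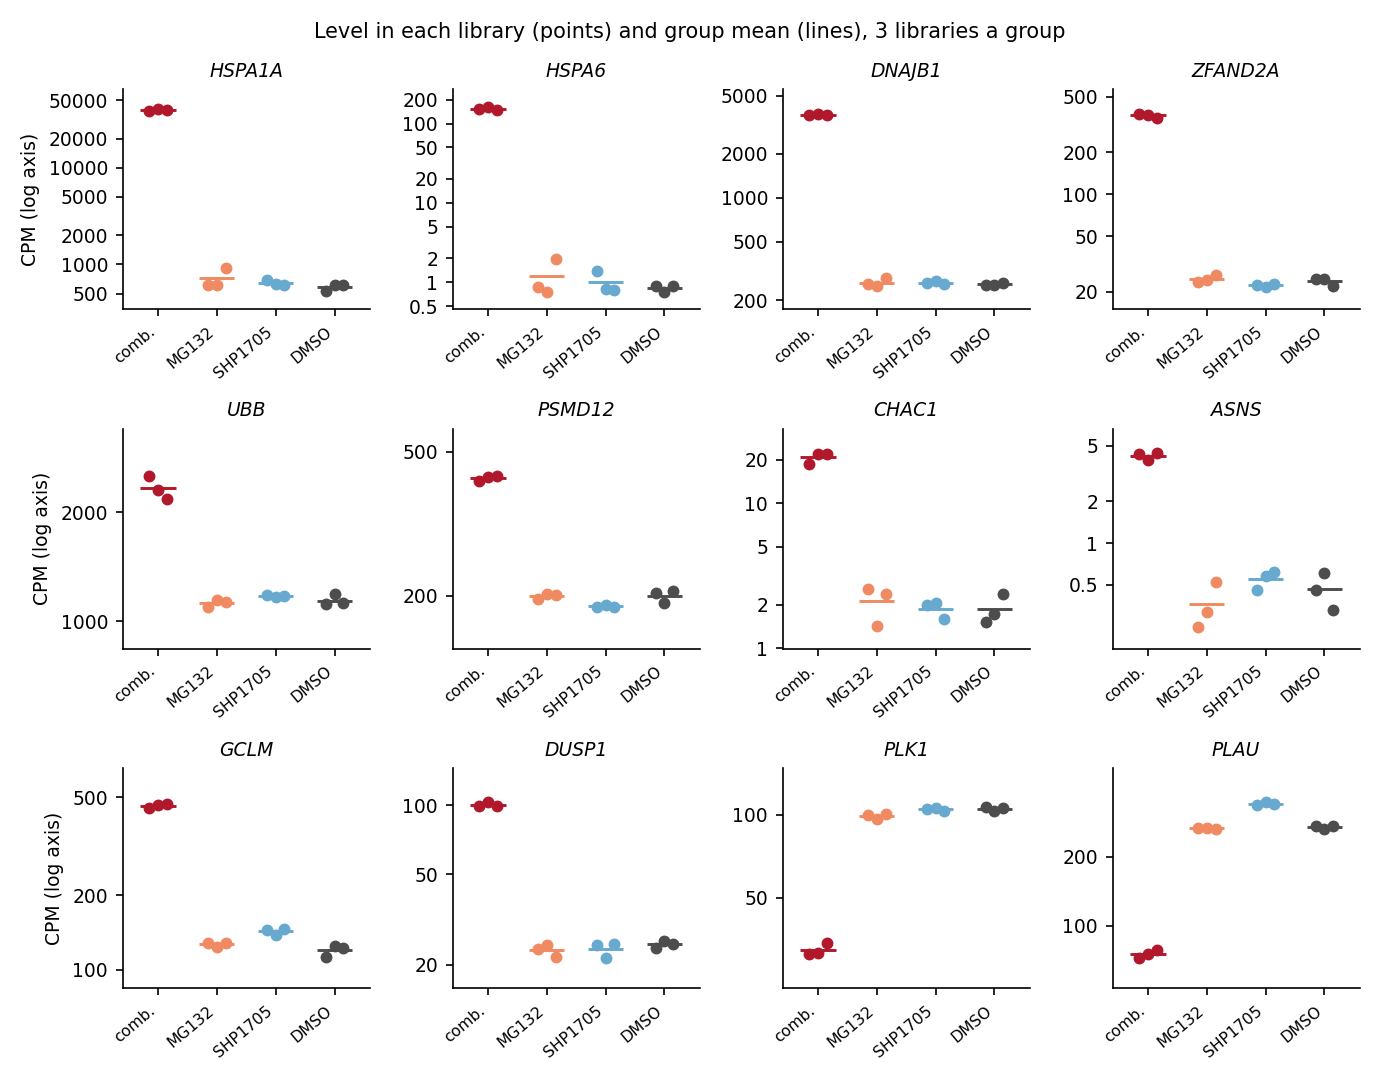
CPM of 12 genes in each library of the MG132 set on a log axis, in the order combination, MG132, SHP1705 and DMSO, with a bar at the group mean. The combination stands apart from the other 3 groups in each gene shown, below them in PLK1 and PLAU and above them in the other 10; MG132 overlaps DMSO in all of these but PLK1.

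HSF1 binds heat shock elements, short arrays of inverted GAA units, and arrays of 3 such units with 2 free bases between neighbours were searched on both strands, from 250 bases before the start of each gene to 50 after it. RefSeq promoters of GRCh38.p14 were found for 64 of 72 tested genes of the cytosolic chaperone lists. A match lay in 5 of these 64 promoters (7.81%), in 2 of the 41 promoters found for the 50 highest genes (4.88%) and in 133 of all 27305 promoters (0.487%). The fifth of them, DNAJA1, has its match after the start. The windows of the other 4 genes are shown because they carry the unit arrays that HSF1 is known to bind, with the match in capitals and 20 bases on each side, 5′ to 3′ on the strand of the gene.
HSPA6 (chr1:161524446-161524498, plus strand; 74 bases before the start): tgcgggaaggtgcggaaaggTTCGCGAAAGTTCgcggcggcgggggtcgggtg
CHORDC1 (chr11:90223077-90223129, minus strand; 60 bases before the start): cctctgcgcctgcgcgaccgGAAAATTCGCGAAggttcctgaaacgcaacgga
HSPA8 (chr11:123062159-123062211, minus strand; 55 bases before the start): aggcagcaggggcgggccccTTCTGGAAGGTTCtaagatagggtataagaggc
DNAJB6 (chr7:157336853-157336905, plus strand; 131 bases before the start): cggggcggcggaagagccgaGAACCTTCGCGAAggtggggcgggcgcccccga
These 4 genes changed by 7.51, 2.47, 1.52 and 1.49 on the log2 scale. CHORDC1 held 3 overlapping matches, of which the first is in capitals, and HSPA8 held 2 separate ones. A shorter letter pair, GAANNTTC or TTCNNGAA, which every longer match contains, lay in 15 of the 64 chaperone promoters (23.4%) and in 13.7% of all promoters; the pair was searched after the shares of the longer form had been seen. A match describes letters in the window and is not evidence that a factor is bound there.

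Several partners of HSP70 also rose. DNAJB1, the HSP40 that feeds clients to HSP70, had 3693, 3731 and 3693 CPM in the combination libraries, against 252, 255 and 260.4 CPM in the DMSO libraries (3.86 ± 0.039, 14.5-fold, adjusted p = 1.59e-22). The 3 combination libraries lay close together and far above the DMSO libraries. DNAJA4, another HSP40, was near the floor in DMSO, with 7.21, 5.33 and 4.9 CPM in the combination libraries, against 0.357, 0.469 and 0.387 CPM in the DMSO libraries. Of 19 tested HSP40 genes 14 rose and 2 fell (median 0.36, background 29.2% higher and 29.7% lower). With library totals 8 rose and 5 fell (median 0.061). The falling members were DNAJB5 (-0.55) and DNAJC9 (-0.23), a histone co-chaperone. BAG3, which links HSP70 to selective autophagy, had 590.1, 589.9 and 616 CPM in the combination libraries, against 72.5, 73.8 and 76.8 CPM in the DMSO libraries (3.01 ± 0.041). The small heat shock proteins HSPB1 and HSPB8, which is a partner of BAG3, rose by 1.52 ± 0.036 and 2.33 ± 0.068. Of 11 tested genes of this list 6 rose and 0 fell (median 0.51), against 5 higher and 4 lower with library totals (median 0.21) and 4 higher and 0 lower with the POSTN covariate (median 0.18). HSPB6 is among those that rose, but with the POSTN covariate its change of 3.68 became -0.043 (adjusted p = 0.974).

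Most genes of the HSP90 system rose. HSP90AA1, the inducible cytosolic HSP90, had 18307, 18507 and 18208 CPM in the combination libraries, against 3309.6, 3257 and 3248 CPM in the DMSO libraries (2.49 ± 0.033), and HSP90AB1, its constitutive form, changed by 1.69 ± 0.023. The co-chaperones CHORDC1, AHSA1 (which stimulates the HSP90 ATPase) and STIP1 (which joins HSP70 to HSP90) rose by 2.47 ± 0.042, 1.87 ± 0.034 and 1.53 ± 0.029. Of 17 tested members 14 rose and 2 fell, namely STUB1 (-0.39), the ubiquitin ligase of chaperone clients, and FKBP5 (-0.34). HSF2 rose by 0.76. In the TRiC chaperonin, which folds actin and tubulin, and its partner prefoldin, 13 of 14 genes rose and 0 fell, with a narrow spread around a median of 0.56 and TCP1 highest at 1.26 ± 0.031. Mitochondrial chaperones HSPD1 and HSPE1, which share a bidirectional promoter, rose together. HSPD1 had 2997, 3055 and 3045 CPM in the combination libraries, against 854, 809.7 and 836 CPM in the DMSO libraries (1.86 ± 0.025), and HSPE1 changed by 1.73 ± 0.061. The wider list of mitochondrial chaperones and proteases held 8 higher and 3 lower genes of 16 (median 0.22, background 29.2% higher and 29.7% lower). With library totals 8 were higher and 8 lower (median -0.084).

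Together the 91 genes of the chaperone lists held 13.4%, 13.7% and 13.6% of the counts of the combination libraries, against 2.55%, 2.54% and 2.55% of the DMSO libraries. HSP70 and HSP110 genes made up 8.86%, 9.08% and 9.04% in the combination, against 0.595%, 0.599% and 0.604% in DMSO. HSP90 and its partners made up 2.65% in each combination library, against 0.835%, 0.821% and 0.829% in DMSO.

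Proteasome subunit genes rose without exception in the main analysis: 32 of 32 core, base and lid genes were called higher (background 29.2%), 12 of them by 2-fold or more, with a median of 0.82 against -0.0083 over all genes tested. The same 32 genes were called higher with the POSTN covariate, and 31 with library totals. PSMC4, an ATPase of the 19S base, had the largest change, with 380.3, 389.5 and 362 CPM in the combination libraries, against 120.1, 119 and 124 CPM in the DMSO libraries (1.64 ± 0.035, adjusted p = 4.43e-18). PSMD14, the deubiquitinase of the lid, rose by 1.45 ± 0.035. PSMD12, another lid subunit, had 415, 425 and 428 CPM in the combination libraries, against 203, 191 and 205 CPM in the DMSO libraries (1.08 ± 0.03). PSMB5, whose product carries the chymotrypsin-like site to which MG132 binds, had 158, 165 and 155 CPM in the combination libraries, against 104, 108 and 102 CPM in the DMSO libraries (0.61 ± 0.041), a clear but smaller separation. The smallest change was that of PSMD7 (0.3 ± 0.041), whose call was lost with library totals (-0.0024). Expressed as a share of all counts, the list held 1.01%, 1.0% and 0.989% in the combination, against 0.683%, 0.675% and 0.67% in DMSO.

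The assembly and accessory genes of the proteasome were called at shares near those of all genes (29.2% higher and 29.7% lower). Of 14 such genes 5 rose and 5 fell (median 0.033), but 4 rose and 9 fell with library totals (median -0.27). USP14, the proteasome-bound deubiquitinase, PSME4, the PA200 activator, and POMP, the maturation factor of the core, rose by 1.04 ± 0.03, 0.88 ± 0.035 and 0.7 ± 0.043. PSMG3, an assembly chaperone of the core, was lower by the log2 change of -0.94 ± 0.063, and so was PSMG4 (-0.49 ± 0.068). The immunoproteasome subunits PSMB8 and PSMB9, which replace standard catalytic subunits after interferon, were lower. Of 14 tested genes of their list 5 rose and 6 fell (median -0.063, background 29.2% higher and 29.7% lower), but 1 rose and 10 fell with library totals (median -0.37). PSMB9 had 92.3, 69.4 and 76.1 CPM in the combination libraries, against 146, 148 and 136 CPM in the DMSO libraries (-0.86 ± 0.073). PSMB8 had 189.8, 212 and 199 CPM in the combination libraries, against 243, 266 and 254 CPM in the DMSO libraries (-0.34 ± 0.046). In both genes all combination libraries lay below all DMSO libraries, in the opposite direction to the standard subunits. TAP1, the peptide transporter gene that shares a promoter with PSMB9, changed by -0.36 ± 0.053, and the class I gene HLA-B by 0.43 ± 0.03.

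UBB, a polyubiquitin gene, had 2521, 2303 and 2174 CPM in the combination libraries, against 1112, 1186 and 1120 CPM in the DMSO libraries (1.03 ± 0.039). ZFAND2A encodes AIRAP, an arsenite-inducible protein of the proteasome, and had 378, 371 and 352 CPM in the combination libraries, against 24.7, 24.8 and 22 CPM in the DMSO libraries (3.94 ± 0.051, 15.4-fold). VCP, the ATPase that pulls ubiquitinated proteins out of complexes and membranes, rose by 1.27 ± 0.025 with its cofactors NSFL1C (1.07) and UFD1 (0.94). Of 25 tested genes of the ubiquitin and VCP list 21 rose and 0 fell (median 0.56), against 15 higher and 6 lower with library totals (median 0.26). Among regulators of NRF1 and NRF2, 11 of 13 rose and 1 fell, against 7 higher and 3 lower with library totals. NFE2L2, the gene of NRF2 itself, had 195, 197 and 193 CPM in the combination libraries, against 119, 113 and 119.6 CPM in the DMSO libraries (0.74 ± 0.035). The small MAF partners MAFG, MAFF and MAFK rose by 1.45, 1.25 and 0.93, and BACH1, a transcription repressor, by 1. DDI2, the protease that activates NRF1, was the falling member (-0.54 ± 0.067).

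Autophagy receptors and membrane conjugates were among the larger rises. GABARAPL1, an ATG8 family gene, had 154, 146 and 146 CPM in the combination libraries, against 11.6, 11.8 and 9.23 CPM in the DMSO libraries (3.77 ± 0.063, 13.6-fold). SQSTM1 encodes p62, the receptor of ubiquitinated cargo, and had 1375, 1413 and 1369 CPM in the combination libraries, against 377, 393 and 394 CPM in the DMSO libraries (1.84 ± 0.028). The kinase gene ULK1, which starts autophagosome formation, and MAP1LC3B (LC3B) rose by 1.56 ± 0.085 and 1.1 ± 0.058. Of 27 tested autophagy genes 17 rose and 4 fell (median 0.37), but 12 rose and 10 fell with library totals (median 0.067), so no direction is given for the list. TFEB, the transcription factor of lysosomal genes, was lower, with 3.79, 4.46 and 4.42 CPM in the combination libraries, against 8.68, 11.1 and 10.4 CPM in the DMSO libraries (-1.25 ± 0.1), and ATG16L1 changed by -0.69 ± 0.071. Of 26 lysosomal genes 16 were higher and 2 lower (median 0.16), but 5 higher and 14 lower with library totals (median -0.14); GLA, alpha-galactosidase, stood out at 1.91 ± 0.047.

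**Figure D3:**
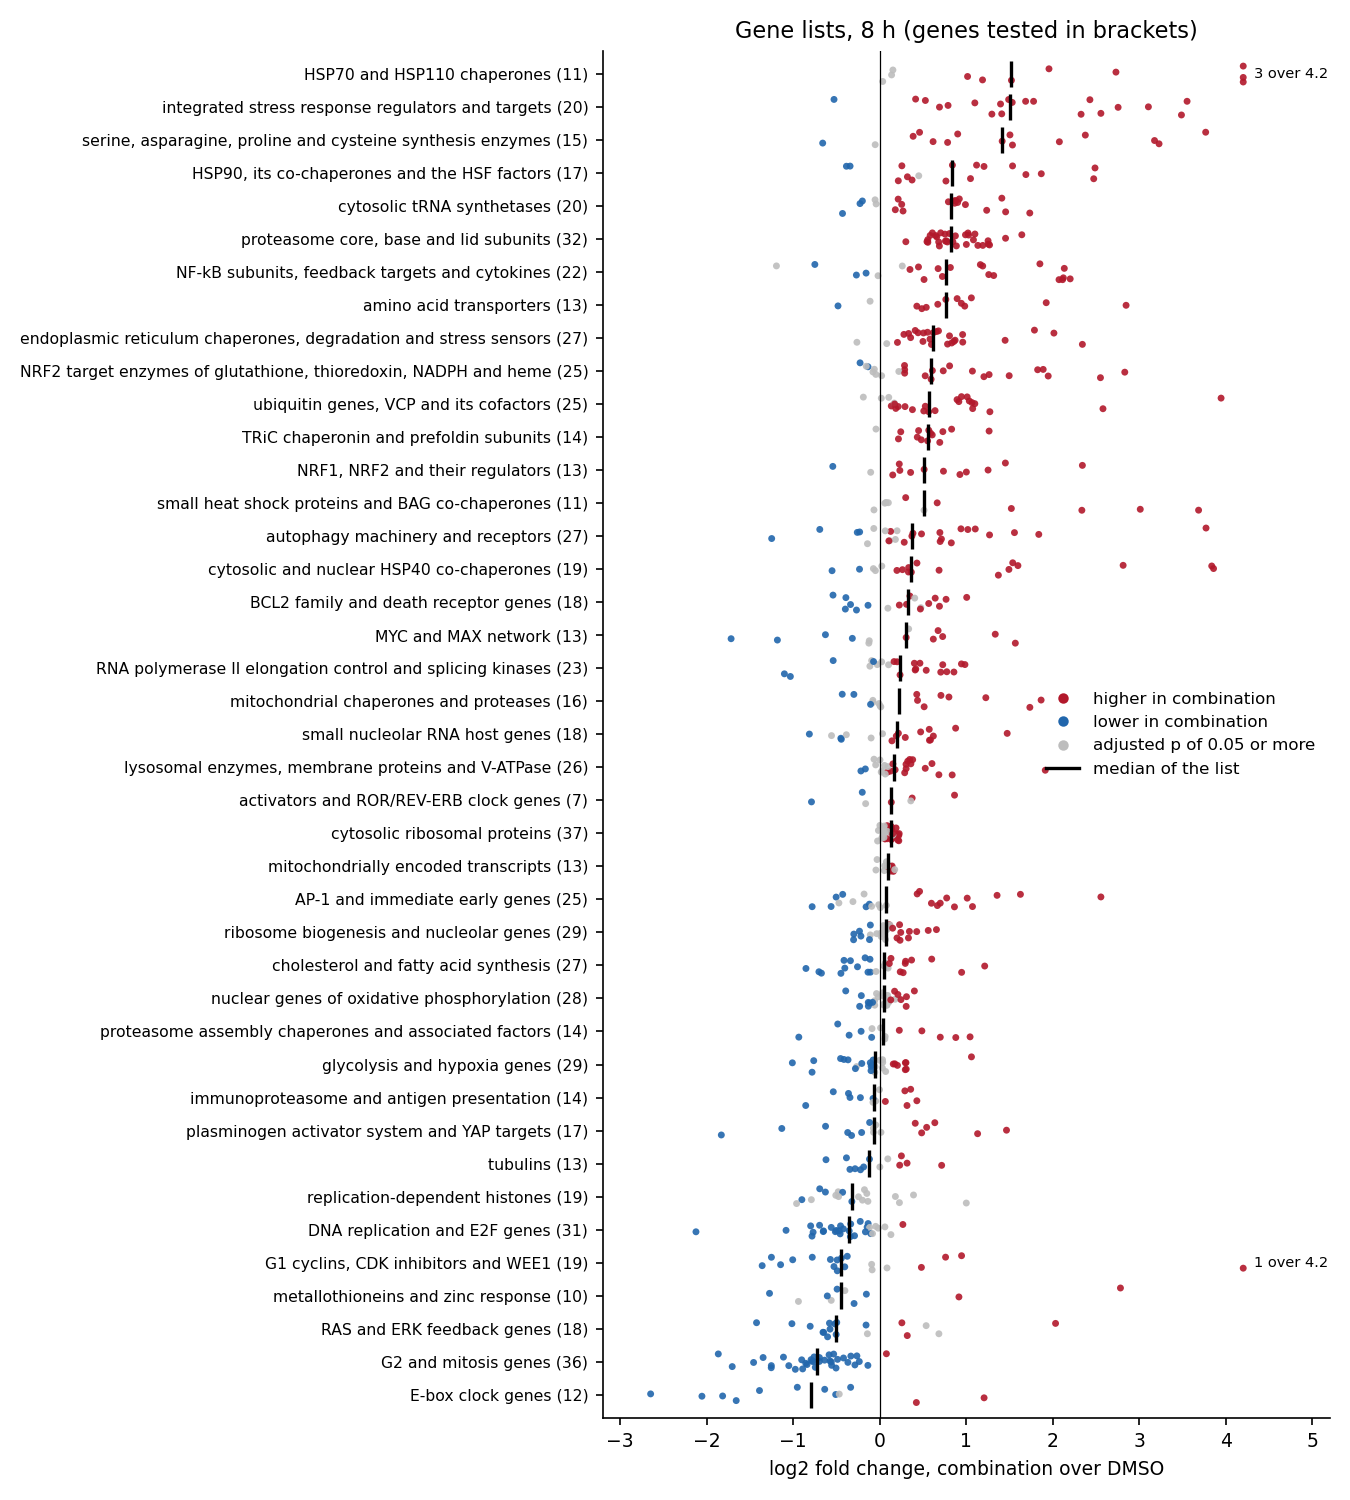
Log2 change of every tested member of the gene lists, with lists down the page, members as points (values over 4.2 are drawn at the edge) and the list median as a bar. The HSP70 and integrated stress response lists have the highest medians (1.52 and 1.51), proteasome members all lie above 0, and mitosis members lie below 0 except BUB3.

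Of 27 tested endoplasmic reticulum (ER) stress genes 25 rose and 0 fell (median 0.62). HSPA5 encodes BiP, the HSP70 of the ER, and had 4360.1, 4497 and 4701 CPM in the combination libraries, against 1121, 1095 and 1145 CPM in the DMSO libraries (2.01 ± 0.028, adjusted p = 5.77e-21). HERPUD1, a membrane protein of ER-associated degradation, had 116, 116 and 121 CPM in the combination libraries, against 22.6, 23.7 and 23.3 CPM in the DMSO libraries (2.34 ± 0.045). XBP1, whose mRNA is spliced by the stress sensor IRE1, had 173, 176 and 169 CPM in the combination libraries, against 63, 61.7 and 65.2 CPM in the DMSO libraries (1.45 ± 0.038); counts per gene do not separate the spliced form. ERN1, the gene of IRE1, and EIF2AK3, the gene of the sensor PERK, rose by 0.86 ± 0.082 and 0.78 ± 0.067. The abundant lectin chaperones CALR and CANX rose by 0.6 ± 0.026 and 0.58 ± 0.02. DNAJB9, an ER co-chaperone that binds IRE1, rose by 1.79 ± 0.059. EDEM1 and DERL3 were not called (0.08, but -0.22 with library totals, and -0.26, adjusted p = 0.0747 and 0.574).

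The ER stress element, the joint site of NF-Y and ATF6, was searched on both strands as CCAAT, 9 free bases and CCACG. It lay in 22 of all 27305 promoters (0.0806%) and in 6 of the 24 promoters found for the ER list (25%). The element contains a CCAAT box, which on its own lay in 21 of these 24 promoters (87.5%) and in 35.7% of all promoters. The windows of 3 of the genes are shown with the element in capitals.
HSPA5 (chr9:125241371-125241429, minus strand; 66 bases before the start): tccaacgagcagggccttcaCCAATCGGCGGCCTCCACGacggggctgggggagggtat
XBP1 (chr22:28800583-28800641, minus strand; 52 bases before the start): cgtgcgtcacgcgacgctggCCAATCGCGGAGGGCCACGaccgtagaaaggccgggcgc
HSP90B1 (chr12:103930196-103930254, plus strand; 194 bases before the start): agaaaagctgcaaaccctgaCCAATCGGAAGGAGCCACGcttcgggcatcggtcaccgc
HSP90B1, the gene of the ER form of HSP90, held a second match 89 bases before its start and rose by 0.65 ± 0.024. The element was also found in CALR, CANX and CRELD2.

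The integrated stress response, in which eIF2 kinases slow translation and favour ATF4, rose in nearly all its listed genes. Of 20 tested genes 19 rose and 1 fell, 15 of them by 2-fold or more, with a median of 1.51. ATF4 mRNA had 375, 389.7 and 380.5 CPM in the combination libraries, against 137, 133 and 126 CPM in the DMSO libraries (1.53 ± 0.038). CHAC1, a glutathione-degrading enzyme and ATF4 target, had 18.7, 22.1 and 21.8 CPM in the combination libraries, against 1.5, 1.71 and 2.38 CPM in the DMSO libraries (3.49 ± 0.17, 11.2-fold, adjusted p = 6.84e-13). DDIT3, which encodes the pro-apoptotic factor CHOP, had 30.04, 32.7 and 29.3 CPM in the combination libraries, against 10.7, 11.6 and 10.5 CPM in the DMSO libraries (1.49 ± 0.069). SESN2, a leucine sensor of the mTORC1 pathway, ATF3 and TRIB3, a pseudokinase induced by CHOP, rose by 2.75 ± 0.065, 2.56 ± 0.086 and 1.69 ± 0.087. PPP1R15A, the inducible phosphatase subunit that reverses the response, rose by 1.78 ± 0.039. ATF5, itself a factor of the same family, was the falling gene, with 25.7, 25.1 and 25.3 CPM in the combination libraries, against 37.3, 35.2 and 37.4 CPM in the DMSO libraries (-0.53 ± 0.051). STC2 changed by 2.33 in the main analysis and by -0.95 with the POSTN covariate (adjusted p = 0.293).

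Most amino acid supply genes, many of them known ATF4 targets, rose. ASNS, asparagine synthetase, had 4.37, 3.91 and 4.42 CPM in the combination libraries, against 0.458, 0.607 and 0.332 CPM in the DMSO libraries (3.17 ± 0.28), a change of 9.03-fold at a low level. CTH, the cysteine-forming enzyme of transsulfuration, had 74.5, 72.7 and 77 CPM in the combination libraries, against 8.91, 7.21 and 7.77 CPM in the DMSO libraries (3.23 ± 0.07). PSAT1 of serine synthesis and MTHFD2 of mitochondrial folate metabolism rose by 2.08 ± 0.049 and 1.53 ± 0.047. SLC7A11, the cystine importer, had 353, 334 and 356 CPM in the combination libraries, against 45.7, 46.9 and 52.5 CPM in the DMSO libraries (2.85 ± 0.055), and its partner chain SLC3A2 rose by 0.94 ± 0.029. Among synthesis enzymes 13 of 15 rose and SHMT1 fell (-0.66); among transporters 11 of 13 rose and SLC43A1 fell (-0.48). Cytosolic tRNA synthetases rose in 15 of 20 cases, led by CARS1 (1.73 ± 0.038) and GARS1 (1.45 ± 0.034), and 3 fell, VARS1 (-0.43) and both subunits of the phenylalanine enzyme, FARSA and FARSB. With library totals 11 synthetase genes were higher and 7 lower. The synthesis list holds 3 genes whose rise was lost with the POSTN covariate, PHGDH (2.38 without and 0.9 with it), CBS (3.77 without and -0.51 with it) and ALDH1L2 (1.5 without and -1 with it).

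ATF4 binds the amino acid response element, searched here as TGATGNAA on both strands. A match lay in 3 of the 18 promoters found for the integrated stress response list (16.7%), in 6 of 16 for the tRNA synthetases (37.5%) and in 3.67% of all promoters. In the promoters found for all tested genes the share was 1.72%. Before the start alone, the match lay in 3 of the 18 (16.7%), in 2 of the 16 (12.5%) and in 3.19% of all promoters. The windows of CHAC1 and ASNS are shown, with the element in capitals, because both genes rose by more than 8-fold and hold it before the start. CHAC1 belongs to the integrated stress response list. ASNS belongs to the amino acid synthesis list, with promoters found for only 10 of 15 genes, and is not in the counts above.
CHAC1 (chr15:40953242-40953289, plus strand; 209 bases before the start): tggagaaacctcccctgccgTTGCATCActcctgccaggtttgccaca
ASNS (chr7:97872449-97872496, minus strand; 68 bases before the start): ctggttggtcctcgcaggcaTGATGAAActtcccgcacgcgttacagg
In CHAC1 the element reads on the opposite strand.

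Of 25 tested antioxidant genes under NRF2 17 rose and 2 fell (median 0.59, background 29.2% higher and 29.7% lower). With library totals 14 were higher and 7 lower (median 0.29). HMOX1, heme oxygenase, had 84.7, 95 and 94.5 CPM in the combination libraries, against 12.3, 13.1 and 13.2 CPM in the DMSO libraries (2.83 ± 0.059). GCLM, the regulatory subunit of glutathione synthesis, had 454, 463 and 470.4 CPM in the combination libraries, against 113, 125 and 123 CPM in the DMSO libraries (1.95 ± 0.037). SRXN1, which repairs peroxiredoxins, and TXNRD1, thioredoxin reductase, rose by 1.89 ± 0.029 and 1.5 ± 0.024. NQO1, a common NRF2 marker, fell slightly and had 242, 251 and 242 CPM in the combination libraries, against 269, 271 and 267 CPM in the DMSO libraries (-0.14 ± 0.028, adjusted p = 2.76e-04). Metallothioneins bind zinc and other metals. Of 10 tested genes of their list 2 rose and 5 fell (background 29.2% higher and 29.7% lower). MT1E had 40.02, 38.7 and 36.2 CPM in the combination libraries, against 94, 95.8 and 88 CPM in the DMSO libraries (-1.27 ± 0.049), MT2A changed by -0.49 ± 0.055 and MT1X by -0.61 ± 0.08, although close copies of this family can share reads. MTF1, the factor that drives them, rose by 0.91 ± 0.061.

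Of 22 tested NF-kB genes 16 rose and 3 fell (median 0.77, background 29.2% higher and 29.7% lower). BIRC3, which encodes the inhibitor of apoptosis cIAP2, had 171, 172 and 164 CPM in the combination libraries, against 38.1, 38.1 and 40.1 CPM in the DMSO libraries (2.12 ± 0.053). The subunit genes of the non-canonical pathway, RELB and NFKB2, rose by 1.32 ± 0.067 and 1.16 ± 0.046. CXCL8, the neutrophil chemokine IL-8, had 22.2, 25.7 and 23.5 CPM in the combination libraries, against 7.44, 5.77 and 6.58 CPM in the DMSO libraries (1.85 ± 0.11), while the cytokine IL11 changed by -0.75 ± 0.054. Of 25 immediate early and AP-1 genes 12 were higher and 6 lower (median 0.075), but 8 higher and 12 lower with library totals (median -0.23), so no direction is given for them. GADD45A, a stress sensor gene, and KLF6 rose by 1.35 ± 0.041 and 1.01 ± 0.03, whereas IER2 and IER3 changed by -0.78 ± 0.041 and -0.5 ± 0.028.

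Feedback genes of the RAS and ERK pathway, which is constitutively active in this line, mostly fell. Among 18 tested, 12 were lower and 3 higher (median -0.51, background 29.7% lower and 29.2% higher). DUSP6, the ERK phosphatase, had 47, 52.2 and 53.1 CPM in the combination libraries, against 99.2, 102 and 107 CPM in the DMSO libraries (-1.02 ± 0.045). SPRY1, a receptor tyrosine kinase antagonist, and the ETS factor gene ETV4 changed by -1.43 ± 0.13 and -0.8 ± 0.05. DUSP1, a stress-induced phosphatase of JNK and p38 in the same list, went the other way, with 99, 104 and 99.1 CPM in the combination libraries, against 23.6, 25.6 and 24.7 CPM in the DMSO libraries (2.03 ± 0.056). In each of these genes the combination and DMSO libraries did not overlap.

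Of 18 tested BCL2 family and death receptor genes 9 rose and 6 fell (median 0.33, background 29.2% higher and 29.7% lower), but 5 rose and 7 fell with library totals (median 0.025). The pro-apoptotic BH3 genes BBC3 (PUMA) and PMAIP1 (NOXA) rose by 1 ± 0.15 and 0.77 ± 0.035, and TNFRSF10B, the TRAIL receptor DR5, by 0.64 ± 0.033. BCL2L1 (BCL-xL), which protects mitochondria, changed by -0.54 ± 0.026 and BAX by -0.4 ± 0.045. MCL1, a short-lived survival protein, had 399, 392 and 397 CPM in the combination libraries, against 313, 313 and 307 CPM in the DMSO libraries (0.35 ± 0.025), and its call was lost with library totals (0.045).

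Nearly all mitotic genes fell. Of 36 tested G2 and mitosis genes 35 fell (background 29.7%) and 1 rose, with a median of -0.72, and 34 were lower with the POSTN covariate. PLK1, the polo-like kinase of mitotic entry, had 31.1, 31.5 and 34.2 CPM in the combination libraries, against 107, 103 and 106 CPM in the DMSO libraries (-1.71 ± 0.041, 3.26-fold lower, adjusted p = 1.95e-17). KIF20A, a kinesin of cytokinesis, had 30.9, 32.5 and 33.4 CPM in the combination libraries, against 119.9, 117 and 117 CPM in the DMSO libraries (-1.87 ± 0.038). CDC20, the activator of the anaphase-promoting complex, had 93.3, 94.7 and 99.3 CPM in the combination libraries, against 263, 258 and 269 CPM in the DMSO libraries (-1.46 ± 0.032). In all 3 genes the combination libraries lay close together and far below DMSO. CCNB1, cyclin B1, and AURKA, the Aurora A kinase, fell by less (-0.84 and -1.25), and CDK1 least among these (-0.29). BUB3, the member called higher, changed by 0.076 and was lower with library totals (-0.23). The mitosis list held 0.351%, 0.357% and 0.364% of the counts in the combination, against 0.694%, 0.684% and 0.685% in DMSO.

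Many mitotic promoters carry the cell cycle homology region, searched here as TTTGAA on both strands, at which the DREAM and MMB complexes bind. It lay in 20 of the 29 promoters found for the mitosis list (69.0%), against 15.4% of all promoters, and before the start in 14 of them (48.3%), against 13.6%. Among the 50 lowest genes it lay in 4 of the 38 promoters found (10.5%), near the 9.94% of promoters found for all tested genes. Among the 50 highest it lay in 7 of 41 (17.1%). The share in the mitosis list was thus not seen in the 50 lowest genes, where promoters covered only 76.0%. A CCAAT box, an activating site of NF-Y, lay in 21 of the 29 promoters of the mitosis list (72.4%), against 35.7% of all promoters. The windows of 3 genes are shown with the element in capitals, since its position close to the start recurs.
PLK1 (chr16:23678840-23678885, plus strand; 29 bases before the start): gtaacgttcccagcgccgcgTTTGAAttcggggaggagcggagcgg
CCNB2 (chr15:59105097-59105142, plus strand; 29 bases before the start): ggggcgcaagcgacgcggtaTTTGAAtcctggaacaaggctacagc
CDC20 (chr1:43358896-43358941, plus strand; 65 bases before the start): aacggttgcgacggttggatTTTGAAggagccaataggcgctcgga
CDC20 held a further match 178 bases before its start. CCNB2, cyclin B2, changed by -0.76 ± 0.05.

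Most replication genes fell, 24 of 31 lower with a median of -0.35. E2F2, a transcription factor of S phase entry, had 2.19, 2.68 and 2.53 CPM in the combination libraries, against 11.1, 10.2 and 11 CPM in the DMSO libraries (-2.12 ± 0.11). PRIM1, the primase subunit, and the helicase subunits MCM6 and MCM3 changed by -1.08 ± 0.065, -0.8 ± 0.047 and -0.78 ± 0.028. CDC45 was the member called higher (0.27), and was lower with library totals (-0.037). CCND1, cyclin D1, had 363, 380.4 and 396 CPM in the combination libraries, against 776, 745 and 769 CPM in the DMSO libraries (-1.01 ± 0.03). CDKN1A, which encodes the CDK inhibitor p21, had 242, 250.5 and 255 CPM in the combination libraries, against 143, 151 and 148 CPM in the DMSO libraries (0.76 ± 0.035). Other inhibitor genes were lower, CDKN2D at -1.36 ± 0.067, CDKN1C at -1.25 ± 0.12 and CDKN2C at -1.15 ± 0.046. CDKN2B changed by 5.33 in the main analysis and by -0.49 with the POSTN covariate (adjusted p = 0.879).

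Outside these programmes several abundant genes changed. PLAU, the urokinase gene, had 72.4, 75.8 and 78.6 CPM in the combination libraries, against 272, 265 and 272 CPM in the DMSO libraries (-1.83 ± 0.032, adjusted p = 1.54e-19). PLAT, the tissue-type activator, had 73.8, 82.9 and 76 CPM in the combination libraries, against 173, 167 and 170.5 CPM in the DMSO libraries (-1.13 ± 0.04). The YAP target CCN1 rose, with 1419.8, 1425 and 1442 CPM in the combination libraries, against 519, 501 and 533 CPM in the DMSO libraries (1.46 ± 0.026), and ANKRD1, another YAP target, by 1.13 ± 0.035. TXNIP, an arrestin family gene driven by the glucose-responsive factor MondoA, had 246, 252 and 247 CPM in the combination libraries, against 563, 568 and 561 CPM in the DMSO libraries (-1.18 ± 0.024), while its relative ARRDC4 rose by 1.33 ± 0.092. MYC rose by 0.73 ± 0.037, with its antagonist MXD1 at 1.57 ± 0.083 and MXD3 at -1.72 ± 0.12. HEXIM1, the inhibitor of the elongation kinase P-TEFb, had 44.1, 41.4 and 41.4 CPM in the combination libraries, against 84.2, 90.8 and 84.9 CPM in the DMSO libraries (-1.03 ± 0.044), and POLR2A, the largest subunit of RNA polymerase II, changed by -0.54 ± 0.041. BRD2, a reader of acetylated histones, rose by 0.73 ± 0.038. KRT19, a keratin of luminal cells, and CAV1, caveolin, changed by -0.95 ± 0.031 and -0.69 ± 0.024. TUBB, the most abundant transcript of the DMSO libraries, had 11032, 11633 and 11793 CPM in the combination libraries, against 14804, 14318 and 14663 CPM in the DMSO libraries (-0.35 ± 0.021).

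The lactate exporter SLC16A3 had 334, 339 and 321 CPM in the combination libraries, against 668, 663 and 674 CPM in the DMSO libraries (-1.01 ± 0.031). SLC2A1, the GLUT1 glucose transporter, LDHA, lactate dehydrogenase, and HK2, hexokinase, changed by -0.76 ± 0.025, -0.45 ± 0.023 and -0.42 ± 0.033. ADM, a hypoxia-induced peptide hormone gene, rose by 1.06 ± 0.047. Of 29 glycolysis and hypoxia genes 8 were higher and 13 lower (background 29.2% and 29.7%), but 1 higher and 23 lower with library totals. In sterol synthesis HMGCS1, an early enzyme, rose by 1.21 ± 0.049, whereas MVK, mevalonate kinase, and SREBF1 changed by -0.85 ± 0.073 and -0.7 ± 0.052. Ribosomal protein genes sat near the centre of the scale: 23 of 37 were called higher and 0 lower with a median of 0.13, but 0 higher and 34 lower with a median of -0.17 with library totals, so no direction is given for them. The same holds for the mitochondrially encoded transcripts (medians 0.091 and -0.21) and the nuclear genes of oxidative phosphorylation (medians 0.045 and -0.26).

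Most clock genes under the E-box activator of BMAL1 and CLOCK were lower in the combination. Among 12 tested, 9 were lower and 2 higher (median -0.8, background 29.7% lower and 29.2% higher). TEF, a bZIP factor of clock output, had 0.205, 0.549 and 0.361 CPM in the combination libraries, against 2.5, 2.51 and 2.07 CPM in the DMSO libraries (-2.65 ± 0.32). NR1D1, which encodes the repressor REV-ERB alpha, had 0.752, 1.03 and 0.662 CPM in the combination libraries, against 3.21, 2.54 and 2.87 CPM in the DMSO libraries (-1.82 ± 0.23). PER3, a period gene, changed by -1.66 ± 0.096 with the combination and by -1.6 with SHP1705 alone. CRY2, the gene of a protein that SHP1705 stabilizes, rose, as did BHLHE40, an E-box repressor (0.42). CRY2 was measured at 15.9, 14.7 and 17.4 CPM in the combination libraries, against 8.02, 6.29 and 6.47 CPM in the DMSO libraries (1.21 ± 0.097); SHP1705 alone had 4.83, 5.4 and 4.53 CPM, and the combination was above it by 1.7 ± 0.1 (adjusted p = 1.81e-11). NR1D2, the REV-ERB beta gene, fell with the combination (-0.64) and stood above SHP1705 alone by 0.69 ± 0.072 (adjusted p = 7.08e-08). ARNTL, the BMAL1 gene, had 13.5, 11.3 and 11.7 CPM in the combination libraries, against 10.3, 8.95 and 8.85 CPM in the DMSO libraries (0.37 ± 0.091, not called with library totals), and was lower than with SHP1705 alone (-0.54 ± 0.085, adjusted p = 1.63e-05).

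The stress lists were next set beside those of the single agents. The comparisons with single agents share their DMSO libraries, so values are set side by side, and the differences were tested between the drug groups themselves. MG132 alone gave 0 called genes of 16591 (1574 at an unadjusted p below 0.05, 56 calls with DESeq2), and SHP1705 alone gave 1249 (7.53%; 3.45% higher and 4.08% lower). Combination against MG132 gave 9487 called genes (57.2%; 28.2% higher and 28.9% lower), and combination against SHP1705 gave 10121 (61%; 31% higher and 30% lower). The proteasome list was higher in the combination in 32 of 32 genes against MG132 and in 32 against SHP1705, and the mitosis list was lower in 35 and 35 of 36. Against MG132 the HSP70 list was higher in 9 of 11 genes and the integrated stress response list in 19 of 20. HSPA1A had 608, 613 and 926 CPM with MG132 and 695, 630.4 and 614 CPM with SHP1705, and both groups overlapped DMSO, with MG132 library 3 the highest of them. The combination was above MG132 by 5.79 ± 0.13 and above SHP1705 by 5.94 ± 0.13. PSMD12 had 195, 202 and 200.5 CPM with MG132 and 186, 188 and 186 CPM with SHP1705, and the combination was above them by 1.09 ± 0.03 and 1.18 ± 0.03. PLK1 had 99.5, 96.5 and 101 CPM with MG132 and 105, 106 and 104 CPM with SHP1705, and the combination differed from them by -1.62 ± 0.041 and -1.7 ± 0.041. The proteasome list had a median of 0.82 with the combination, -0.027 with MG132 and -0.072 with SHP1705. The mitosis list had -0.72, -0.0091 and 0.01 in the same order. For the E-box clock list the medians were -0.8, 0.058 and -1.32.

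**Figure D4:**
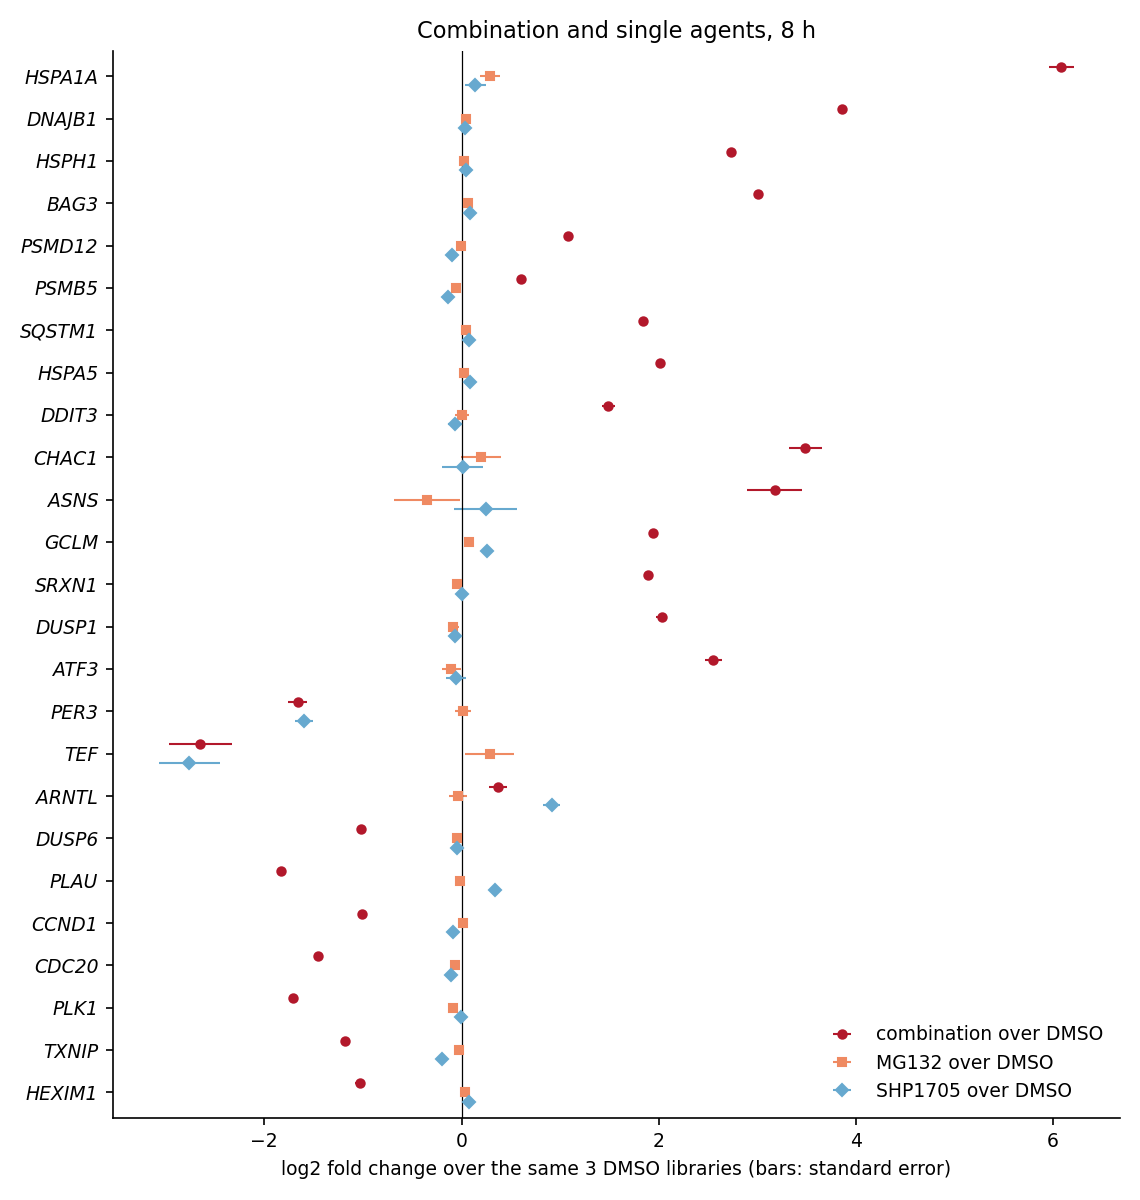
Log2 change against DMSO of 25 genes in the combination, MG132 alone and SHP1705 alone, with standard errors; the 3 comparisons share their DMSO libraries. HSPA1A stands at 6.08, 0.29 and 0.14 in the combination, MG132 and SHP1705, and TEF at -2.65, 0.28 and -2.76.

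Of the 18 fibroblast markers 15 were tested, 5 higher and 2 lower, beside 29.2% higher and 29.7% lower over all genes. By 2-fold or more 4 were called higher and 0 lower. With the POSTN covariate 1 was higher and 1 lower. The markers had a summed level of 414 to 591 CPM in the combination and 374 to 384 CPM in DMSO. The sum was 389 to 581 CPM with MG132 and 416 to 479 CPM with SHP1705. It includes POSTN, with 98.3, 222 and 242 CPM in the combination libraries and at most 0.255 CPM in the DMSO libraries. CDKN2A, a cell cycle inhibitor gene, had 3.08, 6.85 and 7.58 CPM in the combination libraries and held 1, 1 and 0 counts in the DMSO libraries. CDH2, N-cadherin, had 6.53, 16.7 and 15.7 CPM in the combination libraries, against 1.55, 1.21 and 0.995 CPM in the DMSO libraries, and its log2 change of 3.37 became -0.67 with the POSTN covariate (adjusted p = 0.322). SCG2, secretogranin II, and NRCAM, a neural adhesion molecule, were ordered over the combination libraries as POSTN was. POSTN, CDKN2A, CDH2, SCG2 and NRCAM varied together over libraries of several groups, with POSTN at up to 173 CPM in an MG132 library. Whether RNA of other cells was present in these libraries was not tested. DCN, another gene of the fibroblast list, held 5, 5 and 0 counts in the combination and 3, 3 and 0 counts in DMSO. COL1A2 was not called, with 7.62, 7.24 and 7.13 CPM in the combination and 6.65, 7.92 and 8.13 CPM in DMSO. DCN and COL1A2 do not stand for the other members of the list, not all of which are named here. Blood, endothelial and hepatocyte markers summed to at most 5.56, 2.84 and 34.6 CPM in the combination, against 5.28, 3.34 and 37.4 CPM in DMSO. The part of these markers in the low-level rises was not tested. With the POSTN covariate the changes of HSPA1A, DNAJB1 and PSMC4 were 5.83, 3.74 and 1.68.

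**Figure D5:**
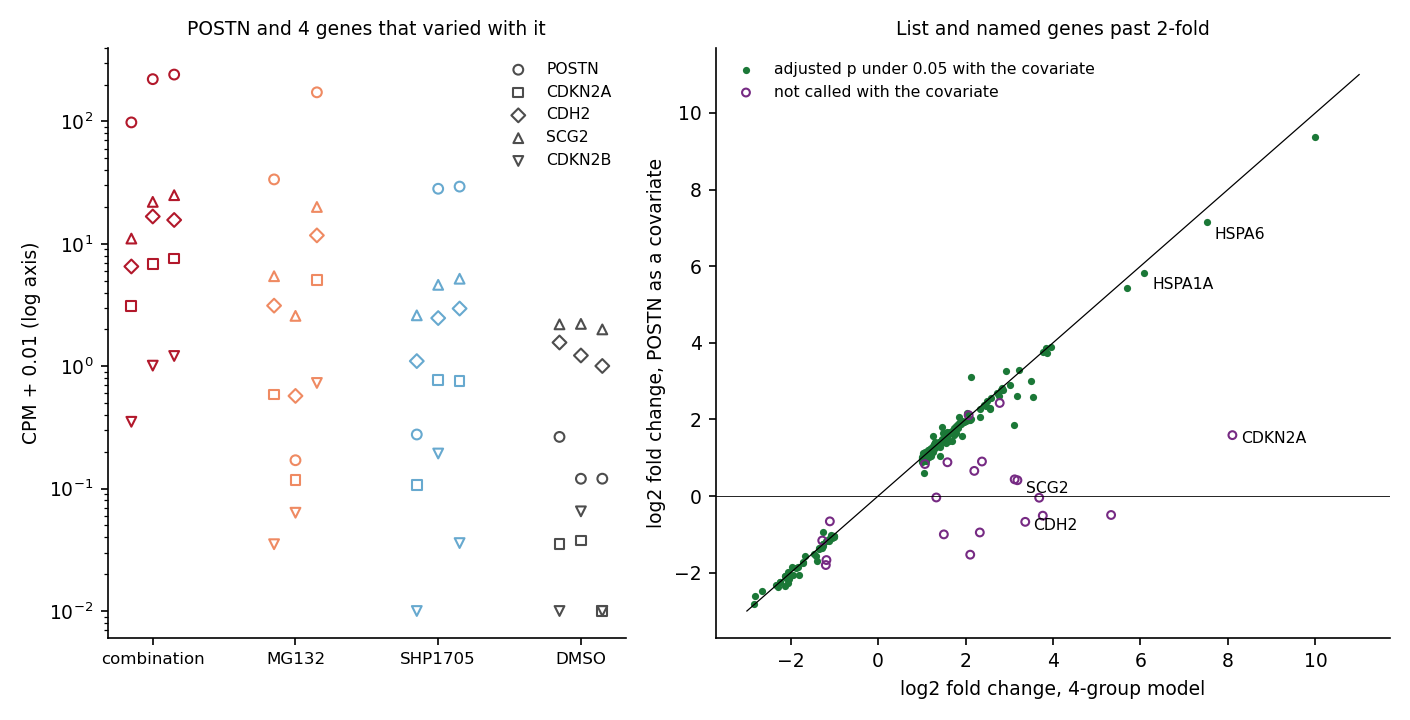
Left, level (CPM + 0.01, log axis) of POSTN and 4 genes that varied with it in each of the 12 libraries. Right, log2 change of list and named genes past 2-fold, called or not, with POSTN itself left out. Values are without (horizontal) and with (vertical) POSTN as a covariate, and the line marks equal values. HSPA6 and HSPA1A keep most of their change, and CDH2 is at -0.67 with the covariate and 3.37 without it.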

How the data were processed

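Libraries of polyA RNA were sequenced from MDA-MB-231 cells. The authors deposited whole-number read counts per gene for the 12 libraries of the MG132 set, made with Trimmomatic, FastQC, HISAT2 and featureCounts on hg38, per the submitters' processing notes. Tool versions and annotation release are not stated, nor is the strand setting, so overlapping or antisense genes cannot be told apart. Of 54583 genes, 16591 passed edgeR's filterByExpr. Counts were scaled with TMM and fitted over 12 libraries and 4 groups with edgeR 4.0.16 (quasi-likelihood test, prior count 0.125; limma 3.58.1, R 4.3.3), with Benjamini-Hochberg adjustment over all genes tested; a standard error is the size of the log2 change divided by the square root of F. Groups came from the labels. Alternatives were DESeq2 1.42.0, other scaling factors, no filter, a replicate block, a 2-group fit, a POSTN covariate (log2 of CPM + 1) and leaving out each library. The scripts were tested on simulated data. Tables and figures used Python 3.11.15, pandas 2.3.3 and matplotlib 3.10.9.

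The 47 gene lists and the members were chosen with earlier results of these data known. The named genes were the 15 highest and 15 lowest called changes at an average of 5 CPM or more without overlap; in each list up to 5 called members by p, 3 against the majority and 2 abundant ones not called; all of the HSP70, integrated stress response, clock, fibroblast and NRF lists; and single genes of ubiquitin, cell cycle and transcription. ALDH1L2, ARRDC4, ASNS, BBC3, CALR, CANX, CBS, CCNB1, CCNB2, CDK1, CDKN1C, CRELD2, DNAJA4, EIF2AK3, ERN1, ETV4, HSF2, HSP90B1, HSPB6, MAP1LC3B, MVK, NSFL1C, PHGDH, PRIM1, PSMB8, PSMD12, PSMD7, SPRY1, TAP1, UFD1 and ULK1 were named outside that rule, after their values were seen. Promoters are RefSeq's (GRCh38.p14), found for 73.6% of tested genes. An antioxidant element (TGACNNNGC) and an E-box (CACGTG) were also searched, and their shares are not given here.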

Additional observations from a re-analysis of the deposited data

How the results depend on the processing

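The combination gave 9163 to 9316 called genes against DMSO when each library was left out in turn, 9436 with DESeq2 and 6930 with the POSTN covariate, against 9763. With library totals 2287 were higher and 8740 lower. The replicate numbers did not pair the libraries: same-numbered combination and DMSO libraries correlated at 0.0051, -0.024 and 0.0015 in their deviations, and the fit with a replicate block called 9694. MG132 against DMSO, with 0 calls, gave 56 with DESeq2, 22 in a 2-group fit, 303 without the filter, 3 with the replicate block and 0 to 67 when each library was left out in turn (1 without MG132 library 1 and 67 without MG132 library 2). SHP1705 against DMSO, with 1249, gave 635 with the POSTN covariate and 619 to 892 when each library was left out in turn, with 619 without DMSO library 2. The cause was not tested. Of the 202 named genes, 202 kept direction and call with DESeq2, with relative log expression factors and with the replicate block, and the POSTN covariate ended the call of 8 without turning them. With the POSTN covariate 6 rises became falls that were not called: ALDH1L2 -1, CBS -0.51, CDH2 -0.67, CDKN2B -0.49, HSPB6 -0.043 and STC2 -0.95. With library totals the log2 changes of BUB3 (-0.23), EDEM1 (-0.22), HSPA14 (-0.27), NFE2L1 (-0.15), CDC45 (-0.037), HSF1 (-0.0897) and PSMD7 (-0.0024) were below 0, the first 4 of them called lower.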

Other observations

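Of 1414 long noncoding RNAs tested, 119 were higher and 358 lower than in DMSO, with a median log2 change of -0.36, against 4375 higher and 4382 lower of 13368 protein-coding genes with a median of -0.0013; over all genes 29.2% were called higher and 29.7% lower. The calls varied with level. Below 1 CPM 4.19% of 954 long noncoding RNAs were higher and 17.0% lower, beside 19.2% and 8.64% of 1655 protein-coding genes. From 1 to 5 CPM 10.6% of 331 long noncoding RNAs were higher and 41.4% lower, beside 18.8% and 30.8% of 1756 protein-coding genes. Among genes with a mean of 5 to 50 CPM, 29.1% of 110 long noncoding RNAs were higher and 48.2% lower, beside 28.6% and 42.4% of 5803 protein-coding genes. Above 50 CPM 63.2% of 19 long noncoding RNAs were higher and 31.6% lower, beside 49.8% and 29.8% of 4154 protein-coding genes. Of 860 pseudogenes 164 were higher and 51 lower, and reads of a parent gene may be counted there. Of 91 snoRNA genes 12 were higher and 0 lower by edgeR's test.

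The 4056 genes with the highest mean CPM were called higher in 50.5% of cases and lower in 29.4%, with a median log2 change of 0.101. By genomic span, 34.7% of the 4056 longest genes and 18.6% of the 4056 shortest were called higher, and 28.6% and 28.7% of them lower. At least 2-fold higher were 248 of the longest and 250 of the shortest, and at least 2-fold lower 144 and 297. The span groups were not split by level, with which calls also varied. These are descriptions across genes, which are not independent.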
